A study of Homo sapiens with 2 samples.

Results

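Collagen genes were read in HuES53 and HuES64, 2 lines of human embryonic stem cells, as the genes whose symbol is COL, a number, A and a number. The deposited table held 43 such genes among 25436 gene symbols, and 29 of the 43 averaged 1 FPKM or more across both lines, as did 13790 genes in all. FPKM are fragments scaled to transcript length and to the mapped fragments of the library, so levels can be set side by side between genes. HuES53 and HuES64 are diploid lines, derived from in vitro fertilized (IVF) embryos, grown undifferentiated to a passage below 20, and they served as controls in work that derived haploid human embryonic stem cells. Each line gave 1 library of polyadenylated RNA. With 1 library per line there is no replicate error and no test, and every difference describes these 2 libraries.

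Collagens are matrix proteins whose chains wind in threes into a triple helix, with glycine recurring at a fixed spacing and many prolines that are hydroxylated. Fibrillar collagens form the banded fibrils of connective tissue, collagen IV forms the network of basement membranes, and further classes decorate fibrils, form beaded filaments or span the plasma membrane. Human pluripotent cells in culture sit on, and lay down, a basement membrane-like matrix, and many trimers need chains from more than 1 gene.

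Both libraries held RNA of pluripotency genes, the defining markers of the labelled cell type. All 6 that were looked at stood at 84.7 FPKM or more in each library, and the highest were POU5F1, a core factor of the pluripotent state, at 1053 FPKM in HuES53 and 1381 FPKM in HuES64, TDGF1 at 723 FPKM in HuES53 and 528 FPKM in HuES64, and LIN28A at 430 FPKM in HuES53 and 448 FPKM in HuES64. All FPKM summed to 601128 in HuES53 and 713421 in HuES64. Steps in the lowest values, which are fitted and rest on few genes, put the depth at about 18.3 fragments per FPKM and kilobase in HuES53 and 15.0 in HuES64, for an assumed fragment of 200 bases. In such bulk libraries, fewer cells that express a gene and less of its RNA per cell cannot be told apart.

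Collagen classes differ in the repeat of their coding sequence. In GENCODE release 29 each of the 43 genes had a complete coding sequence, and glycine made up from 9.17% to 30.7% of the codons. The longest unbroken run in which glycine came at every 3 codons was 337 to 343 repeats in 9 of the 11 fibrillar chains, with COL24A1 and COL27A1 at 216 and 217. The runs reached 38 to 66 repeats in collagen IV, whose helix is interrupted, 37 to 87 in collagen VI and 30 in the multiplexins. Stretches of 90 bases from the start of the longest run are shown for a fibrillar, a basement membrane and a beaded filament chain, because they display the repeat that these chains share. They begin at coding base 1621 of COL11A1 (chromosome 1), 127 of COL4A1 (chromosome 13) and 766 of COL6A2 (chromosome 21). Capitals mark the glycine codon that opens each repeat.
COL11A1: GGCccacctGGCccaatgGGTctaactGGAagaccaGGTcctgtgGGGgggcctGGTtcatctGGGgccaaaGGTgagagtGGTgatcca
COL4A1: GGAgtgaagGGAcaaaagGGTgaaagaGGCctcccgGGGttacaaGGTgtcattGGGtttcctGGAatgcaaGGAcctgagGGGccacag
COL6A2: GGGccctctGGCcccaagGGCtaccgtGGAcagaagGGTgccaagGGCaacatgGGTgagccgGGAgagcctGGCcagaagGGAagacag
Each of the 3 stretches holds 10 repeats, and the bases between the marked codons differ. The COL11A1 stretch has 1 further glycine codon, within a repeat and in lower case, for 11 in all. GC content was 62.2% in the COL11A1 stretch, 56.7% in that of COL4A1 and 66.7% in that of COL6A2. Over the whole coding sequence, the third base of the codon was G or C in 28.2% of COL11A1 codons and in 80.9% of COL6A2 codons.

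A few genes carried most of the collagen RNA, and they were the same genes in both lines. The collagen genes summed to 826 FPKM in HuES53 and 976 FPKM in HuES64, which was 0.137% of all FPKM in each library. The sum was 1.18 times higher in HuES64, and the sum over all genes was 1.19 times higher there. The 8 highest genes were COL1A1, COL18A1, COL4A1, COL4A2, COL6A2, COL1A2, COL6A1 and COL9A3. Together they held 85.9% of the collagen FPKM in HuES53 and 88.4% in HuES64. Of the 43 genes, 16 averaged 5 FPKM or more, 13 lay between 1 and 5, and 14 averaged under 1. In both lines 27 were at 1 FPKM or more, and in neither line 13 were. Spearman's rho between the levels in the lines was 0.96 over the 43 genes, a description of genes that share 2 libraries, against 0.95 over the 13790 genes.

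**Figure D1:**
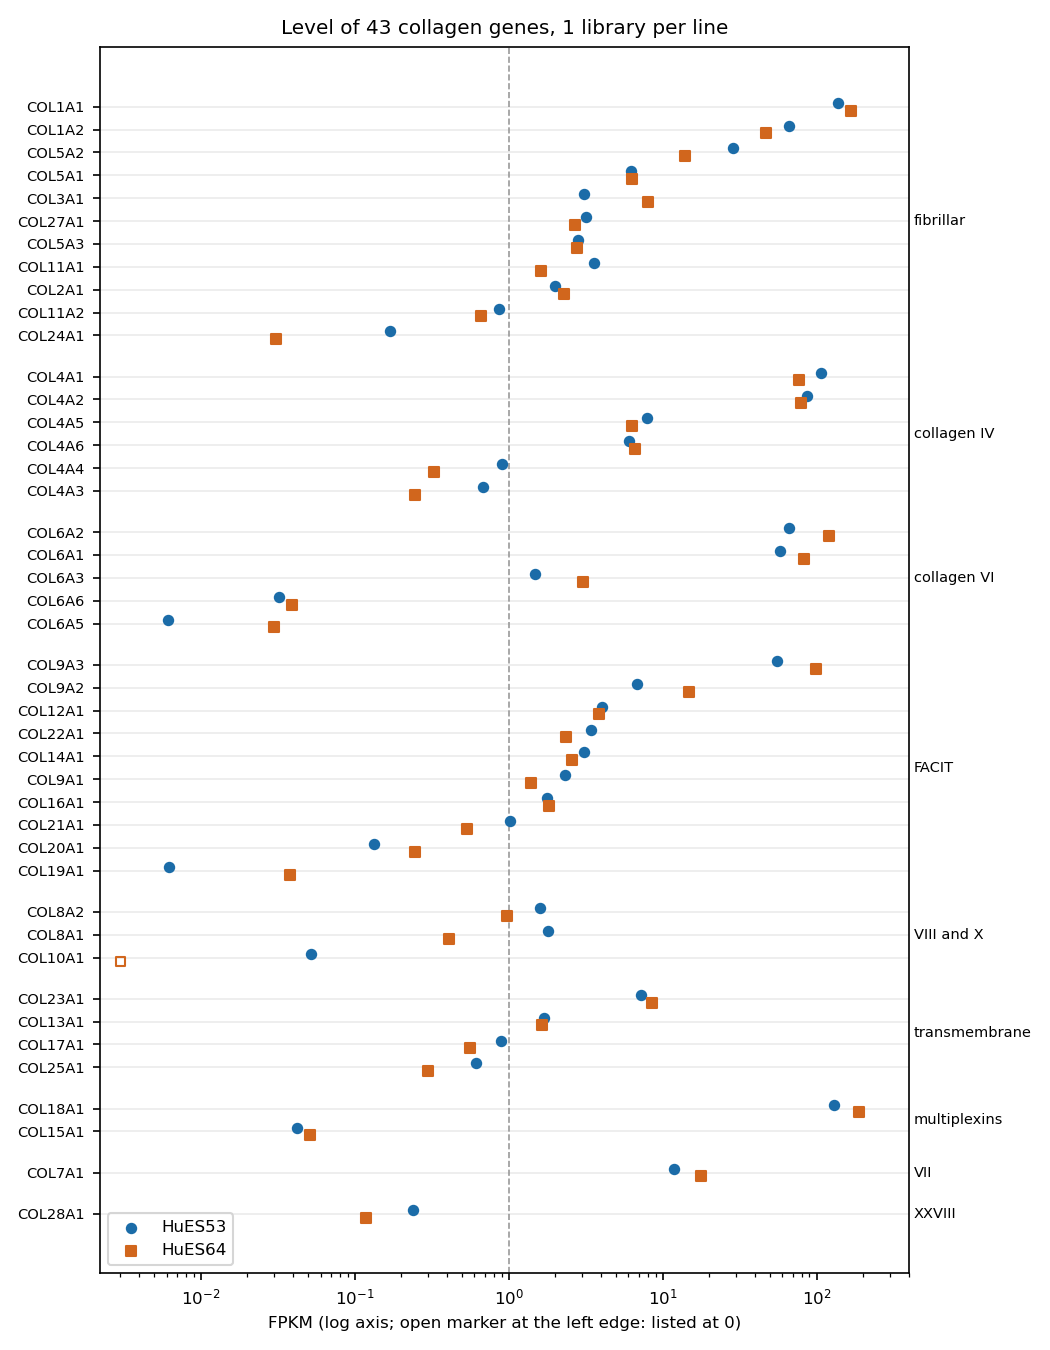
FPKM of the collagen genes in HuES53 and HuES64 on a log axis, by class, with 1 point per library. The 8 highest genes run from 46.7 FPKM (COL1A2 in HuES64) to 189 FPKM (COL18A1 in HuES64), and the level falls by several orders of magnitude to the lowest genes.

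The difference between the lines is given as log2(FPKM + 1) in HuES53 minus HuES64, which understates the fold of low genes. Of the 29 genes averaging 1 FPKM or more, 15 were higher in HuES53 and 14 in HuES64, with a median difference of 0.02, against 0.03 over all 13790 genes. None was at least 2-fold higher in HuES53 on this scale, where 2.15% of all genes were. The 2 that were at least 2-fold higher in HuES64, where 1.70% of all genes were, are COL3A1 and COL9A2. With a pseudocount of 0.1 FPKM, COL8A1, COL5A2 and COL11A1 were also past 2-fold, on the HuES53 side, where 4.24% of all genes then were, and the 2 on the HuES64 side remained, where 2.94% were. COL5A2 and COL8A1 lay just inside the limit with the pseudocount of 1 FPKM, at 0.98 and 0.99, and COL9A2 just past it at -1.03. Scaling both libraries to an equal total (TPM) moves the median of all genes to 0.25 and that of the collagen genes to 0.21. It puts 20 of the 29 higher in HuES53, and takes COL3A1 and COL9A2 under 2-fold. The shares of all genes higher in HuES53 or past 2-fold were not worked out with that scaling. Over the whole set, 58.6% of the 29 genes differed by less than 0.5 on the log2 scale, against 75.6% of all genes tested.

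**Figure D2:**
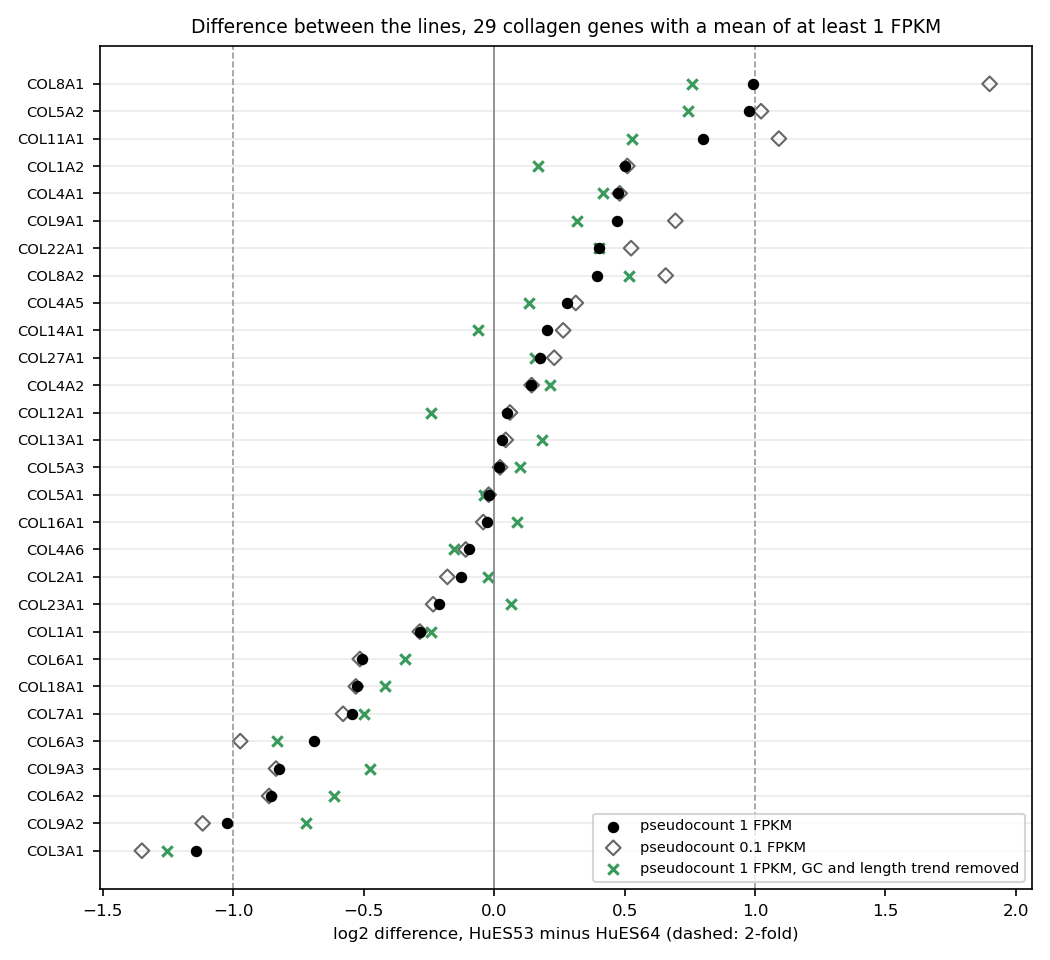
Difference in log2(FPKM + 1), HuES53 minus HuES64, for the 29 collagen genes averaging 1 FPKM or more, as black points. Open diamonds are for a pseudocount of 0.1 FPKM. Green crosses are the values after removal of the GC and length trend by the longest transcript. Among the black points, COL3A1 (-1.14) and COL9A2 (-1.03) lie past the line for 2-fold higher in HuES64, and COL8A1 (0.99) and COL5A2 (0.98) lie just short of the line on the HuES53 side.

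Collagen I, the main collagen of skin, bone and tendon, was the most abundant fibrillar type in these cells. COL1A1 stood at 138 FPKM in HuES53 and 168 FPKM in HuES64. COL1A2 stood at 66.5 FPKM in HuES53 and 46.7 FPKM in HuES64. In the deposited values the genes thus differed in opposite directions, by -0.28 for COL1A1 and 0.50 for COL1A2. The COL1A1 difference depended on the processing. It was -0.04 under TPM scaling and -0.31 under median of ratios scaling. Correcting for GC content and length put it at -0.0035 by the median transcript and -0.24 by the longest. COL1A2 was at 0.75 under TPM scaling, and after that correction at 0.46 by the median transcript and 0.17 by the longest. The usual type I trimer holds 2 COL1A1 chains and 1 COL1A2 chain. The ratio of COL1A1 to COL1A2 was 2.07 in HuES53 and 3.60 in HuES64. Such a ratio within a library does not depend on how the libraries are scaled, but GC content is not taken out of it. The longest transcript has 61.1% GC for COL1A1 and 41.7% for COL1A2. What part GC content has in the change of this ratio was not tested. The COL1A2 locus overlaps an uncharacterised gene, LOC100506027, at 27.1 FPKM in HuES53 and 28.4 FPKM in HuES64, so its reads may be shared.

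COL3A1 and COL5A2, neighbours on chromosome 2, went opposite ways. COL3A1, the chain of collagen III of blood vessels and distensible tissues, stood at 3.08 FPKM in HuES53 and 8.00 FPKM in HuES64, a difference of -1.14. COL5A2, a chain of collagen V, which helps to start collagen I fibrils, stood at 28.6 FPKM in HuES53 and 14.0 FPKM in HuES64, a difference of 0.98. COL3A1 lies at 189839099 to 189877472 and COL5A2 at 189896641 to 190044605 in the build of the deposited table, which is not given in the sources used here. They are 19168 bases apart with no other gene of the table between them. Each overlaps microRNA genes that are listed at 0 in both lines. COL3A1 ranked 21st among the collagen genes in HuES53 and 13th in HuES64.

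COL5A1 and COL5A3, further chains of collagen V, differed less than COL5A2. COL5A1, the main partner of COL5A2, stood at 6.28 FPKM in HuES53 and 6.37 FPKM in HuES64. COL5A2 was thus 4.55 times COL5A1 in HuES53 and 2.20 times in HuES64. GC content is not taken out of this ratio. The longest transcript has 60.3% GC for COL5A1 and 47.9% for COL5A2. Correcting for GC content and length put COL5A1 at 0.23 by the median transcript and -0.04 by the longest. It put COL5A2 at 0.71 by the median transcript and 0.74 by the longest. Part of the COL5A1 locus is shared with LOC100506554, at 5.76 FPKM in HuES53 and 8.31 FPKM in HuES64. COL5A3, another chain of that type, was lower, at 2.83 FPKM in HuES53 and 2.78 FPKM in HuES64. COL11A1, a cartilage fibril chain that can join collagen V chains, stood at 3.57 FPKM in HuES53 and 1.62 FPKM in HuES64, a difference of 0.80. Its partner COL11A2 was at 0.864 FPKM in HuES53 and 0.661 FPKM in HuES64. COL2A1, the main collagen of cartilage, was at 2.00 FPKM in HuES53 and 2.28 FPKM in HuES64. COL27A1 was at 3.16 FPKM in HuES53 and 2.68 FPKM in HuES64. As a class, the 11 fibrillar genes held 30.9% of the collagen FPKM in HuES53 and 25.9% in HuES64, of which COL1A1 alone made 16.7% in HuES53 and 17.2% in HuES64.

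Collagen IV, the network of basement membranes, held a larger share of the collagen FPKM in HuES53 than in HuES64, at 25.4% and 17.3%. COL4A1, a chain of the common collagen IV trimer, stood at 107 FPKM in HuES53 and 76.9 FPKM in HuES64, a difference of 0.48. COL4A2, its partner, stood at 87.0 FPKM in HuES53 and 78.7 FPKM in HuES64, a difference of 0.14. In HuES53 the pair ranked 3rd and 4th among the collagen genes, and in HuES64 7th and 6th. The trimer of that type takes 2 COL4A1 chains and 1 COL4A2 chain. The ratio of COL4A1 to COL4A2 was 1.23 in HuES53 and 0.976 in HuES64. GC content is not taken out of this ratio or of the shares above. The longest transcript has 55.4% GC for COL4A1 and 62.0% for COL4A2. Correcting for GC content and length put COL4A1 at 0.43 by the median transcript and 0.42 by the longest. It put COL4A2 at 0.31 by the median transcript and 0.21 by the longest.

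The 6 collagen IV genes stand as 3 pairs, each pair sharing a start region and read in opposite directions. The gaps between the loci in the deposited table were 134 bases for COL4A1 and COL4A2, 5 bases for COL4A4 and COL4A3, and 449 bases for COL4A6 and COL4A5. Levels followed the pairs: COL4A5, whose chain is the one lost in most Alport syndrome, stood at 7.89 FPKM in HuES53 and 6.33 FPKM in HuES64, and COL4A6 at 6.10 FPKM in HuES53 and 6.58 FPKM in HuES64. COL4A3 was at 0.680 FPKM in HuES53 and 0.247 FPKM in HuES64, and COL4A4 at 0.911 FPKM in HuES53 and 0.327 FPKM in HuES64. These are chains of the mature kidney glomerulus. The COL4A3 locus overlaps LOC654841, at 0.742 FPKM in HuES53 and 0.363 FPKM in HuES64. Within a pair the ratio of the chains lay between 0.746 (COL4A3 to COL4A4 in HuES53) and 1.29 (COL4A5 to COL4A6 in HuES53), while the pairs were far apart from one another in level.

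**Figure D3:**
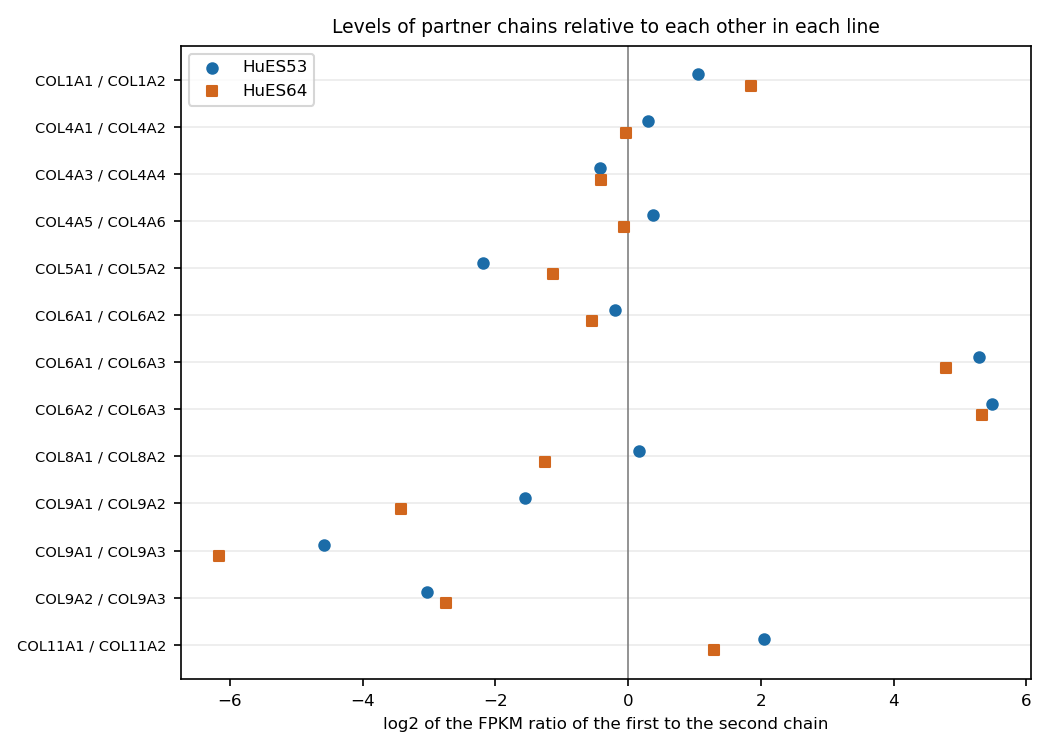
Log2 of the FPKM ratio of the first to the second chain, for pairs of chains that join one trimer, with 1 point per library. The collagen IV pairs lie near 0, where the chains are equal, from -0.42 to 0.37. Farthest from 0 in both lines are COL6A2 to COL6A3 (5.48 in HuES53, 5.32 in HuES64), COL6A1 to COL6A3 (5.29 in HuES53, 4.78 in HuES64) and COL9A1 to COL9A3 (-4.59 in HuES53, -6.16 in HuES64).

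The start regions of 2 of the pairs show how closely the members share their DNA. Windows from 250 bases before to 50 bases after the start come from RefSeq on GRCh38.p14, which is not known to be the build of the table. A window was found for 31 of the 43 genes. The starts of COL4A1 and COL4A2 lie 127 bases apart, so 226 bases of their windows are the same DNA read on opposite strands (chr13:110307108-110307407 on the minus strand for COL4A1, chr13:110307034-110307333 on the plus strand for COL4A2). The nearest starts of COL4A5 and COL4A6 lie 380 bases apart, and their windows share 121 bases (chrX:108439588-108439887, plus strand, and chrX:108439409-108439708, minus strand). COL4A6 has 2 windows, and only the one with its start nearest to that of COL4A5 was used for the pair. Capitals mark CCAAT and GGGCGG, the letters of the CCAAT box and of the GC box, searched on both strands with TATAAA. No match of one overlapped a match of another in these windows.
COL4A1: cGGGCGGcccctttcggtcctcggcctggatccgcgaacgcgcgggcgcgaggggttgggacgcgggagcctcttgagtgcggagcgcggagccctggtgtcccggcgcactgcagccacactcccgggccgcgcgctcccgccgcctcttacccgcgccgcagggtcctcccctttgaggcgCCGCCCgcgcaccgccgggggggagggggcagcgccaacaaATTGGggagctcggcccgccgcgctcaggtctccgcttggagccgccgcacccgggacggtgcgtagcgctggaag
COL4A2: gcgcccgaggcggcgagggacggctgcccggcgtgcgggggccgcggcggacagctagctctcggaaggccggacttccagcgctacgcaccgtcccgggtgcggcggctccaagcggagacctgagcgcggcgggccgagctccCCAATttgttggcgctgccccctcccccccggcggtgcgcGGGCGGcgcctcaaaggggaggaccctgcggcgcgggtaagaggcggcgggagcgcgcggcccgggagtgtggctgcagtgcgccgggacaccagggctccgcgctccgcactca
COL4A5: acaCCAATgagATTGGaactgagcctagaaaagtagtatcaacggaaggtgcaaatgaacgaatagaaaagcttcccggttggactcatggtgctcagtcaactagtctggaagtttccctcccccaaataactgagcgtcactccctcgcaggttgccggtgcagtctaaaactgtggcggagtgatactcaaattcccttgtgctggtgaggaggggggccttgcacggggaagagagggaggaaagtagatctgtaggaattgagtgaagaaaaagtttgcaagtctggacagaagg
COL4A6: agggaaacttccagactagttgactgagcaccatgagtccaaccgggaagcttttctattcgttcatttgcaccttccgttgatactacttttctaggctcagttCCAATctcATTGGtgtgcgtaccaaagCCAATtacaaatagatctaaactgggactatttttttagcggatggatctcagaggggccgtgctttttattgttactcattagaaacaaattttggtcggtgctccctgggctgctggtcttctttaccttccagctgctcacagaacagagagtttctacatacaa
The pairs differ in composition: GC content was 76.7% for COL4A1 and 77.7% for COL4A2, against 49.3% for COL4A5 and 43.7% for COL4A6, and 58.7% at the median of all 35116 windows. CCAAT occurs in all 4 windows printed, once each in the COL4A1 and COL4A2 windows, where it is the same site, and in neither window of the third pair, COL4A3 and COL4A4. It occurs in 32.6% of the 43 windows of collagen genes and in 34.6% of all windows. GGGCGG occurs in the COL4A1, COL4A2 and COL4A3 windows and in none of the other 3, in 55.8% of the collagen windows and in 45.0% of all windows. TATAAA is in none of the 6, in 18.6% of the collagen windows and in 11.5% of all windows. The COL4A3 and COL4A4 starts lie 419 bases apart and share 82 bases. These matches describe letters only.

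Collagen VI, which forms beaded filaments around cells, was higher in HuES64 in each of its 3 chains that averaged 1 FPKM or more. Over all genes, 52.5% were higher in HuES53, but only 19.4% of those with 60% GC or more. The longest transcript has 63.5% GC for COL6A1 and 66.4% for COL6A2. COL6A1 stood at 58.1 FPKM in HuES53 and 83.1 FPKM in HuES64, a difference of -0.51. With the GC and length trend removed it was -0.14 (median transcript) or -0.34 (longest transcript), and with TPM scaling -0.27. COL6A2 stood at 66.5 FPKM in HuES53 and 121 FPKM in HuES64, a difference of -0.85. COL6A3, the chain that the common trimer also needs, stood at 1.49 FPKM in HuES53 and 3.02 FPKM in HuES64, a difference of -0.69. The first 2 chains thus ran far ahead of COL6A3: COL6A1 was 39.0 times COL6A3 in HuES53 and 27.5 times in HuES64. COL6A5 and COL6A6, chains that can take the place of COL6A3, were at 0.00612 and 0.0321 FPKM in HuES53 and at 0.0299 and 0.0393 FPKM in HuES64. COL6A1 and COL6A2 lie 93069 bases apart on chromosome 21, with no other gene of the table between them. The COL6A1 locus overlaps LOC100652958, at 44.4 FPKM in HuES53 and 97.1 FPKM in HuES64, so its reads may be shared. Collagen VI made 15.3% of the collagen FPKM in HuES53 and 21.2% in HuES64.

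Collagen IX was higher in HuES64 in 2 of its 3 chains. It is a FACIT collagen, a class that sits on the surface of fibrils, and it is best known from cartilage. COL9A3 stood at 55.6 FPKM in HuES53 and 99.4 FPKM in HuES64, a difference of -0.83. COL9A2 stood at 6.82 FPKM in HuES53 and 14.9 FPKM in HuES64, a difference of -1.03. COL9A1 stood at 2.32 FPKM in HuES53 and 1.39 FPKM in HuES64, a difference of 0.47. The trimer has 1 chain of each gene, and the RNA levels were far from equal: COL9A3 was 24.0 times COL9A1 in HuES53 and 71.3 times in HuES64. COL9A2 was 2.94 times COL9A1 in HuES53 and 10.7 times in HuES64. GC content is not taken out of these ratios. The longest transcript has 47.6% GC for COL9A1, 64.8% for COL9A2 and 67.4% for COL9A3. The end of the COL9A3 locus overlaps TCFL5, at 9.81 FPKM in HuES53 and 12.4 FPKM in HuES64.

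Among the other FACIT genes, COL12A1 and COL14A1, which tie fibrils to their surroundings, were at 4.05 and 3.10 FPKM in HuES53 and at 3.88 and 2.56 FPKM in HuES64. COL22A1, a collagen of tissue junctions, was at 3.45 FPKM in HuES53 and 2.37 FPKM in HuES64. COL16A1 was at 1.77 FPKM in HuES53 and 1.82 FPKM in HuES64. The 10 FACIT genes made 9.48% of the collagen FPKM in HuES53 and 13.0% in HuES64, most of it COL9A3.

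COL18A1 was the highest collagen gene in HuES64 and the second in HuES53. It encodes a multiplexin of basement membranes, whose end fragment is endostatin, an inhibitor of vessel growth. It stood at 131 FPKM in HuES53 and 189 FPKM in HuES64, a difference of -0.53. Its antisense gene COL18A1-AS1 is listed at 0 in both lines. COL15A1, the other multiplexin, was near 0, at 0.0419 FPKM in HuES53 and 0.0512 FPKM in HuES64.

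COL7A1, which forms the anchoring fibrils that hold epidermis to dermis, stood at 11.9 FPKM in HuES53 and 17.8 FPKM in HuES64, a difference of -0.55. The transmembrane collagens were led by COL23A1, at 7.27 FPKM in HuES53 and 8.57 FPKM in HuES64. COL13A1, of neuromuscular junctions, was at 1.71 FPKM in HuES53 and 1.65 FPKM in HuES64. The network-forming collagens were low: COL8A1, of vessel walls and the cornea, was at 1.80 FPKM in HuES53 and 0.410 FPKM in HuES64, and COL8A2 at 1.60 FPKM in HuES53 and 0.980 FPKM in HuES64. The plain FPKM ratio of COL8A1, HuES53 to HuES64, was 4.40, the largest among the 29 genes, against a difference of 0.99 with the pseudocount. COL10A1, the collagen of hypertrophic cartilage, was at 0.0517 FPKM in HuES53 and is listed at 0 in HuES64. It lies within NT5DC1, at 29.8 FPKM in HuES53 and 29.6 FPKM in HuES64.

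Of the 14 genes averaging under 1 FPKM, 9 were higher in HuES53 and 5 in HuES64, and 56.8% of the 6244 genes averaging under 1 FPKM with unequal values were higher in HuES53. COL21A1, at 1.02 FPKM in HuES53 and 0.540 FPKM in HuES64, was the highest. COL17A1, a hemidesmosome collagen of epidermis, was at 0.894 FPKM in HuES53 and 0.565 FPKM in HuES64. By the depth estimate 7 of the 14 rest on fewer than 10 fragments in at least 1 line: COL10A1, COL15A1, COL19A1, COL24A1, COL28A1, COL6A5 and COL6A6. The remaining genes of low level are COL11A2, COL20A1, COL25A1, COL4A3 and COL4A4, with plain ratios of the higher to the lower line between 1.31 and 2.79. Ratios of the 7 rest on few fragments and can move by counting error alone. COL26A1 is listed under its older symbol EMID2, which the rule on symbols did not take in, and stood at 32.5 FPKM in HuES53 and 41.0 FPKM in HuES64.

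GC content moved with the difference between the lines. Over the 29 genes, Spearman's rho between the difference and the GC content of the longest transcript was -0.67, and over 11916 genes with a transcript in GENCODE it was -0.50. All points share the same 2 libraries. Under 50% GC, all 7 collagen genes were higher in HuES53, as were 72.9% of all genes. From 50% to 60% it was 4 of 7 collagen genes and 38.8% of all genes, and from 60% up 4 of 15 collagen genes and 19.4% of all genes. The genes low in GC are COL1A2, COL5A2, COL8A1, COL9A1, COL11A1, COL12A1 and COL14A1, and those with the highest GC include COL6A2, COL9A3 and COL18A1.

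After the trend with GC and length over all genes was removed, the rho over the 29 genes was -0.42. Over the 11916 genes it was -0.0004. These values and those that follow are by the longest transcript unless the median transcript is named. The difference of COL9A2 became -0.72, under 2-fold, and that of COL6A2 became -0.61. COL3A1 (52.1% GC) and COL6A3 (53.2% GC) kept their size, at -1.26 and -0.83. COL5A2 went to 0.74 and COL8A1 to 0.76. With the median transcript COL5A2 was at 0.71, and COL8A1 was nearly unchanged at 0.96. COL12A1 and COL14A1, low in GC and higher in HuES53 before, turned sign, to -0.24 and -0.06. What part GC content has in these differences was not tested beyond this removal.

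**Figure D4:**
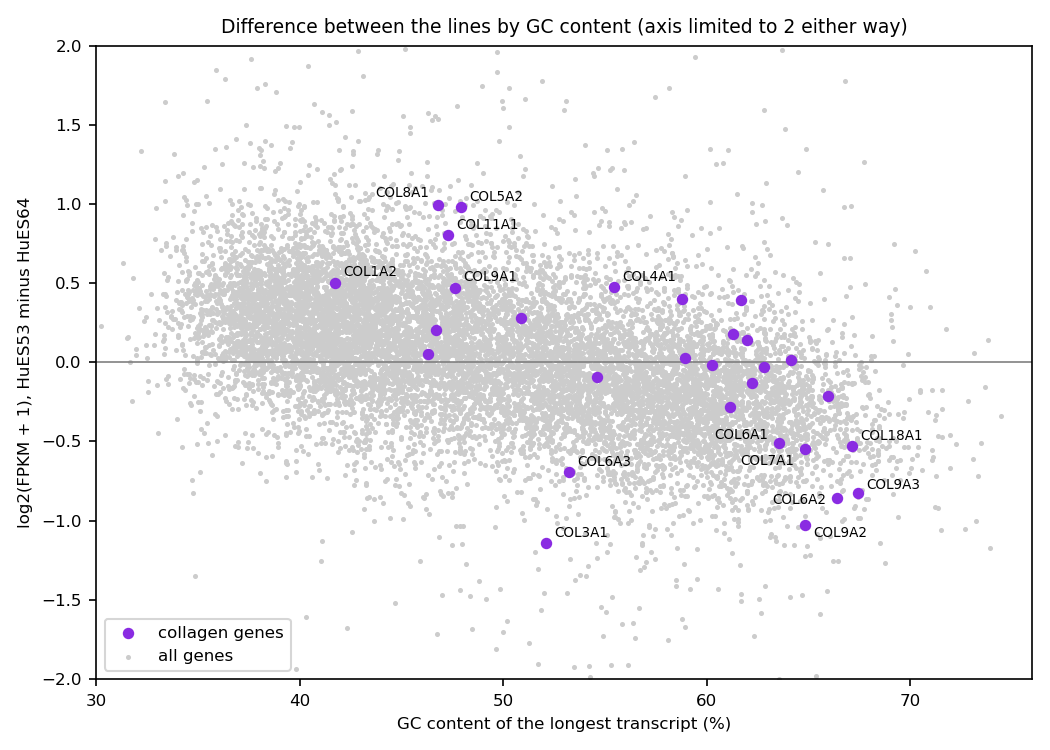
Difference in log2(FPKM + 1), HuES53 minus HuES64, against the GC content of the longest transcript in percent. Purple points are the 29 collagen genes and grey points all genes averaging 1 FPKM or more that have a transcript. COL3A1 and COL6A3 lie in the lower part of the cloud at their GC content, and COL5A2, COL8A1 and COL11A1 in its upper part.

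Collagen needs a set of helper proteins, from folding to breakdown. Of 19 genes for folding and modification, 17 averaged 1 FPKM or more, and 2 were at least 2-fold higher in HuES53, where 2.15% of all genes were, and none in HuES64, where 1.70% were. PLOD2, which hydroxylates lysines of the collagen ends for cross-linking, stood at 30.8 FPKM in HuES53 and 14.7 FPKM in HuES64, a difference of 1.02. TMEM38B, an endoplasmic reticulum potassium channel whose loss disturbs collagen modification, stood at 12.7 FPKM in HuES53 and 5.04 FPKM in HuES64, a difference of 1.18. With the GC and length trend removed both were under 2-fold, at 0.71 and 0.85 (longest transcript) or 0.72 and 0.92 (median transcript). The highest of the list were PPIB, a prolyl isomerase, at 505 FPKM in HuES53 and 660 FPKM in HuES64, and SERPINH1, the collagen chaperone HSP47, at 456 FPKM in both. P4HB, a subunit of the prolyl hydroxylase, stood at 317 FPKM in HuES53 and 327 FPKM in HuES64. The median difference of the 17 genes was -0.07.

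Of 10 genes for the export of procollagen from the endoplasmic reticulum, 9 averaged 1 FPKM or more, with 8 higher in HuES53 (88.9%, against 52.5% of all genes) and none past 2-fold. The median was 0.22, and over all genes 2.15% were past 2-fold on the HuES53 side and 1.70% on the HuES64 side. After removal of the GC and length trend, 8 of them had a value, and 4 (median transcript) or 5 (longest transcript) were higher in HuES53. SEC24D and SEC23A, coat proteins of the carriers, stood at 36.5 and 35.6 FPKM in HuES53 and at 26.7 and 23.8 FPKM in HuES64. KLHL12, a ubiquitin ligase adaptor that enlarges the carriers, stood at 24.7 FPKM in HuES53 and 22.0 FPKM in HuES64. Of 15 genes for cleaving the ends of procollagen and for cross-linking, 9 passed the same level, none was past 2-fold, and the median was -0.07. They were led by PCOLCE, which enhances the cleavage, at 28.2 FPKM in HuES53 and 34.1 FPKM in HuES64, and by the lysyl oxidases LOXL2 (27.7 FPKM in HuES53, 32.3 in HuES64) and LOXL1 (7.26 FPKM in HuES53, 10.7 in HuES64).

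Collagen receptors were represented by 5 of 11 genes, with a median of 0.46 and none past 2-fold. Of the 5, 3 were higher in HuES53 (60%, against 52.5% of all genes). Over all genes, 2.15% were past 2-fold on the HuES53 side and 1.70% on the HuES64 side. With the GC and length trend removed, 4 (median transcript) or 3 (longest transcript) were higher in HuES53. ITGA2 and ITGA1, integrin chains, stood at 2.47 and 2.04 FPKM in HuES53 and at 1.09 and 1.02 FPKM in HuES64. ITGB1, the shared chain of the collagen-binding integrins, stood at 199 FPKM in HuES53 and 144 FPKM in HuES64. Its difference, 0.46, became 0.21 (median transcript) or 0.18 (longest transcript) with the trend removed. DDR1, a receptor kinase, stood at 53.8 FPKM in HuES53 and 60.2 FPKM in HuES64. MRC2, which takes up collagen fragments, stood at 19.6 FPKM in HuES53 and 26.7 FPKM in HuES64. Of 11 genes for degradation and its inhibitors 8 passed the level, with a median of -0.10 and none past 2-fold. TIMP1, an inhibitor of the metalloproteinases, stood at 95.6 FPKM in HuES53 and 178 FPKM in HuES64, a difference of -0.89. MMP14 and MMP2, metalloproteinases, the first of which activates the second, stood at 56.4 and 16.0 FPKM in HuES53 and at 54.1 and 24.7 FPKM in HuES64.

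Of 14 collagen-binding matrix genes, 10 passed the level and 1 was past 2-fold, on the HuES53 side, where 2.15% of all genes were, and none on the HuES64 side, where 1.70% were. That gene was FN1, fibronectin, at 566 FPKM in HuES53 and 211 FPKM in HuES64, a difference of 1.42. It stayed above 2-fold with the GC and length trend removed, at 1.01 (longest transcript) or 1.27 (median transcript). The FN1 locus overlaps another gene, so its reads may be shared. SPARC, which binds fibrillar collagen, stood at 273 FPKM in HuES53 and 236 FPKM in HuES64. HSPG2, perlecan of basement membranes, stood at 28.6 FPKM in HuES53 and 20.8 FPKM in HuES64. The median over the list was -0.001.

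Markers of other cells that make collagen went both ways between the lines. The 12 fibroblast and mesenchyme markers summed to 138 FPKM in HuES53 and 161 FPKM in HuES64. Of the 7 that averaged 1 FPKM or more, 3 were higher in HuES53 (42.9%, against 52.5% of all genes) and 4 in HuES64. With the GC and length trend removed by either transcript, 4 of the 7 were higher in HuES53. FBLN1, an extracellular matrix protein, made most of the sum, at 109 FPKM in HuES53 and 121 FPKM in HuES64. Its difference, -0.14, turned sign to 0.11 with TPM scaling. With the trend removed it was 0.01 (median transcript) or 0.03 (longest transcript). S100A4 stood at 14.8 FPKM in HuES53 and 26.0 FPKM in HuES64, and TWIST2 at 3.30 FPKM in HuES53 and 2.89 FPKM in HuES64. Among the rest of the 7, PDGFRA was at 2.15 FPKM in HuES53 and 1.13 FPKM in HuES64. TWIST1 was at 2.55 FPKM in HuES53 and 1.74 FPKM in HuES64. LUM was at 2.26 FPKM in HuES53 and 3.47 FPKM in HuES64, and PDGFRB at 2.03 FPKM in HuES53 and 2.96 FPKM in HuES64. Of the 5 averaging under 1 FPKM, DCN was at 0.199 FPKM in HuES53 and 0.438 FPKM in HuES64. FAP, also of these 5, is listed at 0 in HuES53 and was at 0.178 FPKM in HuES64.

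The 8 cartilage markers summed to 17.6 FPKM in HuES53 and 11.2 FPKM in HuES64. The 3 that averaged 1 FPKM or more were higher in HuES53, as were 52.5% of all genes. HAPLN1 turned sign with the GC and length trend removed by the longest transcript. The 3 were MATN3 (12.2 FPKM in HuES53, 7.87 in HuES64), HAPLN1 (2.20 FPKM in HuES53, 1.90 in HuES64) and SOX9 (1.51 FPKM in HuES53, 0.766 in HuES64). ACAN, which encodes the main proteoglycan of cartilage, was at 0.841 FPKM in HuES53 and 0.361 FPKM in HuES64. The 6 endothelial markers summed to 34.6 FPKM in HuES53 and 24.3 FPKM in HuES64, led by KDR (27.6 FPKM in HuES53, 17.6 in HuES64), TEK (4.11 FPKM in HuES53, 4.09 in HuES64) and TIE1 (2.20 FPKM in HuES53, 2.00 in HuES64). PECAM1, a defining endothelial gene, was at 0.0501 FPKM in HuES53 and 0.0459 FPKM in HuES64.

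The 7 endoderm markers summed to 62.4 FPKM in HuES53 and 51.2 FPKM in HuES64. Of the 6 that averaged 1 FPKM or more, 4 were higher in HuES53 (66.7%, against 52.5% of all genes) and 2 in HuES64. AFP was past 2-fold on the HuES53 side, where 2.15% of all genes were. It stood at 7.25 FPKM in HuES53 and 1.53 FPKM in HuES64, a difference of 1.71. GATA4 (11.5 FPKM in HuES53, 7.77 in HuES64) and FOXA2 (11.9 FPKM in HuES53, 9.26 in HuES64) were also higher in HuES53. LAMA1 (14.4 FPKM in HuES53, 15.2 in HuES64) and SOX17 (6.89 FPKM in HuES53, 10.6 in HuES64) were higher in HuES64, LAMA1 not so with TPM scaling. The 5 epidermal markers summed to 9.15 FPKM in HuES53 and 10.3 FPKM in HuES64, nearly all KRT10, at 8.95 FPKM in HuES53 and 10.3 FPKM in HuES64. KRT14 and TP63 were at 0.116 and 0.0758 FPKM in HuES53 and are listed at 0 in HuES64, and KRT5 and KRT1 are listed at 0 in both. The part of such cells in the collagen differences was not tested.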

How the data were processed

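Gene expression was measured by RNA sequencing of 1 library each of HuES53 and HuES64. The authors deposited FPKM values, 1 per gene and line, in a table of 25593 rows. TopHat2 2.0.4 and Cufflinks 2.0.2 are named, per the submitters' processing notes, with no role given. Genome build, annotation, strand setting and read filters: not given in the sources used here. Per the labels' protocols, RNA was selected for polyadenylation and libraries were made with a TruSeq kit, so non-polyadenylated RNA is underrepresented. Count tests need raw counts, and 1 library per line allows no test at all.

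Chromosome Y (136 rows) was left out, and rows sharing a symbol (21 symbols) were summed, which left 25436 symbols. Differences are log2(FPKM + 1), HuES53 minus HuES64, for genes averaging 1 FPKM or more, and 2-fold means a difference of 1 or more either way. Loci count from 0 in the table: 1285 of 1312 microRNA genes had their GENCODE length on that reading, and coordinates are printed counting from 1. An exact 0 can be a failed estimate. Depth was estimated from values that lay within 3% of a whole number of fragments, 17 of 20 in HuES53 and 9 of 11 in HuES64, by a search for the best step, which covers counting error only. Reads of overlapping genes may be shared, and 12 of the 43 collagen loci overlap another gene. Among the named helper and marker genes, so do PPIB, PCOLCE, LOXL1, LOXL2, ITGA1, DDR1, TIMP1, SPARC, FN1, HSPG2, TEK, KRT10 and TP63.

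GC content and length came from GENCODE release 29, matched by symbol for 86.4% of the tested genes, and the trend was removed as medians over 20 bins of each in 5 rounds, tested on simulated data. The collagen genes, the lists of helper and marker genes and the naming rule were chosen with earlier results of these data known. The rule names every collagen gene, gives in full those averaging 5 FPKM or more or past 2-fold and their partner chains, and takes from each list the 3 highest members and those past 2-fold. Further genes were named after their values were seen. The 11 alternatives were 2 pseudocounts, 2 filters, 3 scalings, the highest row of a symbol, overlapping loci left out and the trend removed with 2 choices of transcript. Python 3.11.15, pandas 2.3.3, numpy 2.4.6 and matplotlib 3.10.9 were used.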

Additional observations from a re-analysis of the deposited data

How the results depend on the processing

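With 1 library per line no value has a replicate error, and no library could be left out. No paired analysis was possible because each line has 1 library. The count of collagen genes at least 2-fold higher in HuES53, 0 with the deposited values, was 3 with a pseudocount of 0.1 FPKM, 2 with 0.5 FPKM and 3 with TPM scaling. Shares of all genes past 2-fold were worked out for the pseudocounts of 1 and 0.1 FPKM only. They were 2.15% and 4.24% on the HuES53 side, so the other counts have no such share beside them. The count at least 2-fold higher in HuES64, 2 with the deposited values, was 0 with TPM scaling, where COL3A1 stood at -0.997 and COL9A2 at -0.83, and 1 with overlapping loci left out (20 genes, without COL3A1) and after removal of the trend with GC and length by either transcript, where COL9A2 dropped below 2-fold and COL3A1 did not. The median difference, 0.02, was -0.25 over the 16 genes averaging 5 FPKM or more and 0.21 with TPM scaling, which moved the median of all genes to 0.25. The log2 ratio of the summed collagen FPKM was -0.24 and turned to 0.0065 with TPM scaling. Of the 29 collagen genes, TPM scaling turned the sign of 5 (COL16A1, COL23A1, COL2A1, COL4A6 and COL5A1), median of ratios scaling that of COL5A3, and trend removal that of COL12A1, COL14A1, COL16A1 and COL23A1 with either transcript, and of COL2A1 and COL5A1 with the median transcript only. Of the helper genes, PLOD2 was under 2-fold with median of ratios scaling, at 0.995. Of the named helper and marker genes, 7 of 39 turned sign with TPM scaling (DDR1, FBLN1, KRT10, LAMA1, LIN28A, LOXL2 and P4HB), 2 with median of ratios scaling (SERPINH1 and TEK), and 7 of 37 (median transcript; DDR1, FBLN1, KLHL12, LOXL2, P4HB, PCOLCE and TEK) or 5 of 37 (longest; FBLN1, HAPLN1, P4HB, PCOLCE and TEK) with the trend removed. The cause of these shifts was not tested. Genes under 1 FPKM are limited by depth.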

Other observations

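The collagen VI pseudogenes, which share sequence with the collagen VI genes and fall outside the rule on symbols, were low: COL6A4P2 stood at 0.296 FPKM in HuES53 and 0.123 FPKM in HuES64, and COL6A4P1 at 0.0260 FPKM in HuES53, with HuES64 listed at 0.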
